A study of Mus musculus with 16 samples.

Results

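Matrix metalloproteinases (Mmps) and tissue inhibitors of metalloproteinases (Timps) were followed across the cells of the mouse thoracic aorta. The set comprised 10 genes of the 31055 counted features, picked by symbol: the proteases Mmp2, Mmp3, Mmp9, Mmp14, Mmp19 and Mmp23 and the inhibitors Timp1, Timp2, Timp3 and Timp4. Each of 16 single-cell RNA libraries came from 1 male 129S6/SvEv mouse that carried the tamoxifen-inducible Myh11-CreER, a Cre driven by a smooth muscle promoter on the Y chromosome, and that received tamoxifen at 6 weeks of age. Control mice were Smad3+/+;Myh11-CreER and the others Smad3lox/lox;Myh11-CreER, called Smad3SmKO. Aortas were taken 10 weeks after deletion (2 Smad3+/+ and 2 Smad3SmKO libraries, all batch 4, digested for 60 min) or 18 weeks after deletion (5 Smad3+/+ and 7 Smad3SmKO). In the later group a 30 min digestion was used for batches 1, 2 and 3 and a 60 min one for batches 5 and 6, of which batch 5 held Smad3SmKO only. Some mice also carried an EGFP-L10a tracer of smooth muscle. The labels give it to the 2 Smad3+/+ libraries of 10 weeks, to every 60 min library of 18 weeks and to no other. At 10 weeks the tracer and genotype labels thus cannot be told apart. Time and batch cannot be told apart, because batch 4 holds every 10-week library and no other.

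Mmps are zinc-dependent endopeptidases that are made as inactive proenzymes and, once activated, cut collagens, elastin, proteoglycans and other proteins outside the cell. Timps bind the active site of Mmps and block it. Mmp14 sits in the plasma membrane, where it activates pro-Mmp2 with the help of Timp2, so an inhibitor can also be part of an activation step. In the aorta this family is known for its part in remodelling of the elastic wall and in aneurysm.

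Cells were assigned to classes by a few genes. Vascular smooth muscle cells (VSMCs) held at least 5 UMIs (unique molecular identifiers, each standing for 1 captured RNA molecule) of Myh11 and more Myh11 than Dcn, and fibroblasts the reverse. Endothelium held at least 2 UMIs of Pecam1 and Cdh5 together, and leukocytes at least 2 of Ptprc and Tyrobp together. This gave 8950 VSMCs (22 to 1706 per library), 36066 fibroblasts (196 to 5505), 3303 endothelial cells (31 to 469) and 3357 leukocytes (13 to 948) among 50858 cells kept. The rules overlapped. Of the 3303 cells called endothelium, 1813 also met the fibroblast rule, and 315 of the leukocytes did. Values for those classes are by the rule unless stated, and the main ones are also given for cells that met exactly 1 class rule (single-class cells), of which there were 1226 endothelial cells and 2946 leukocytes. In these, the summed level of 8 fibroblast markers fell from a median of 13041 to 805 CPM (UMIs scaled to a class total of 1000000) in endothelium and from 1982 to 284 CPM in leukocytes, against 24317 CPM in fibroblasts, whereas all 7 endothelial markers stayed detected in every library. VSMCs had a median of 54980 CPM for 8 VSMC markers, against 2139 CPM in fibroblasts. These lists include Myh11, Dcn, Pecam1 and Cdh5, by which the cells were assigned, so part of these contrasts was fixed by the rules. Endothelium by the rule was a mixed class: 7 fibroblast markers stood there at median shares of 49.1% (Pdgfra) to 81.0% (Pi16) of their fibroblast level, so its values by the rule are those of endothelial and fibroblast transcripts together. Only 315 barcodes occurred in more than 1 library. In bulk sums, fewer cells that express a gene and less RNA per cell cannot be told apart.

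Labels were checked first. Smad3 in VSMCs stood at 4.69 and 5.40 CPM in the 2 Smad3+/+ libraries of 10 weeks and at 5.19 and 8.08 CPM in those labelled Smad3SmKO. At 18 weeks it ranged from 2.83 to 9.89 CPM (median 8.00) and from 4.04 to 17.3 CPM (median 7.93) respectively. The groups overlapped. The exons removed are not given in the sources used here, so these 3′ counts may lie outside the deleted part, in which case they check nothing, and each genotype below is the label. GFP UMIs went against the tracer label in 4 libraries, Smad3SmKO replicates 1 and 2 of 10 weeks and Smad3+/+ replicates 4 and 5 of 18 weeks. The former are the only Smad3SmKO libraries of 10 weeks, so no genotype comparison at 10 weeks can be made without them. At 18 weeks the values of Mmp23 and Timp2 in VSMCs for digestion, and of Timp2 there for genotype, are given without the mismatched libraries too.

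The 10 genes lie on 9 chromosomes of GRCm38 (mm10). Mmp3 is on the plus strand of chromosome 9 at 7445822 to 7455975, and Timp1 on the plus strand of chromosome X at 20870166 to 20874735. Mmp23 is on the minus strand of chromosome 4 at 155650655 to 155653384, and Timp2 on the minus strand of chromosome 11 at 118301069 to 118355740. Timp1, Timp3 and Timp4 each lie wholly inside a synapsin gene on the opposite strand, Syn1, Syn3 and Syn2. Their hosts were counted at no more than 6.49, 79.8 and 11.95 CPM in any library and class. Among the genes detected in fibroblasts of every library, Mmp3 and Timp1 varied most between libraries in that class, and their promoters are shown for that reason. The stretches are the 250 bases before the annotated start in RefSeq, read 5′ to 3′ on the plus strand of GRCm38.p6, with matches to the AP-1 motif TGANTCA in capitals.

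Mmp3, chr9:7445572-7445821: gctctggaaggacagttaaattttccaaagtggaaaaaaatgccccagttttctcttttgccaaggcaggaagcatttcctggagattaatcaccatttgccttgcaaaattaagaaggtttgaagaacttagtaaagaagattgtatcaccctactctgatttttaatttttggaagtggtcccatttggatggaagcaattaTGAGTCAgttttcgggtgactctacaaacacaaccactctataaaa

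Timp1, chrX:20869916-20870165: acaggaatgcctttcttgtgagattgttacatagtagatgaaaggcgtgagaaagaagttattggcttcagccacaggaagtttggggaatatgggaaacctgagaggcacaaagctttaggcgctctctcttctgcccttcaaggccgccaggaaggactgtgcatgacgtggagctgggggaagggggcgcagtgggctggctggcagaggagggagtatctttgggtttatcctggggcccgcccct

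The Mmp3 stretch held 1 match, which begins 46 bases before the start, and the Timp1 stretch none. The motif, searched on both strands, occurred in 6.75% of the 32851 promoter stretches of this length. RefSeq stretches were matched for 7 of the 10 genes (Mmp3, Mmp14, Mmp23 and the 4 Timps), and Mmp3 was the only one of the 7 with the AP-1 letters. The motif CAGACA, part of the sequence that Smad3 is known to bind, occurred in 17.1% of all stretches and in none of the 7 genes. A match or its absence describes these letters only.

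Fibroblasts carried most of the family. Against fibroblasts, 8 genes were lower in VSMCs and Timp4 was higher, 9 of 10 called by edgeR's quasi-likelihood test with library as a block, where 68.9% of all 13637 genes were called. In leukocytes 7 genes were lower and Mmp9 was higher (8 of 10, against 76.8% of all genes). Timp4 in leukocytes had a log2 difference of -0.59 (SE 0.38) by the rule and was called lower in single-class cells (-4.08, SE 0.61). In endothelium by the rule 7 were lower and Timp4 was higher (8 of 10, against 35.6%). Mmp9 was called in neither VSMCs (log2 difference 0.42, SE 0.45) nor endothelium by the rule, although in single-class cells it was higher in VSMCs than in fibroblasts by 1.97 on the log2 scale (SE 0.50). The latter rested on 58 UMIs in VSMCs and 46 in fibroblasts, and the former on 142 UMIs in VSMCs, 104 of them in Smad3SmKO replicate 5 of 18 weeks. Timp3 in endothelium by the rule had an adjusted p of 0.987.

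**Figure D1:**
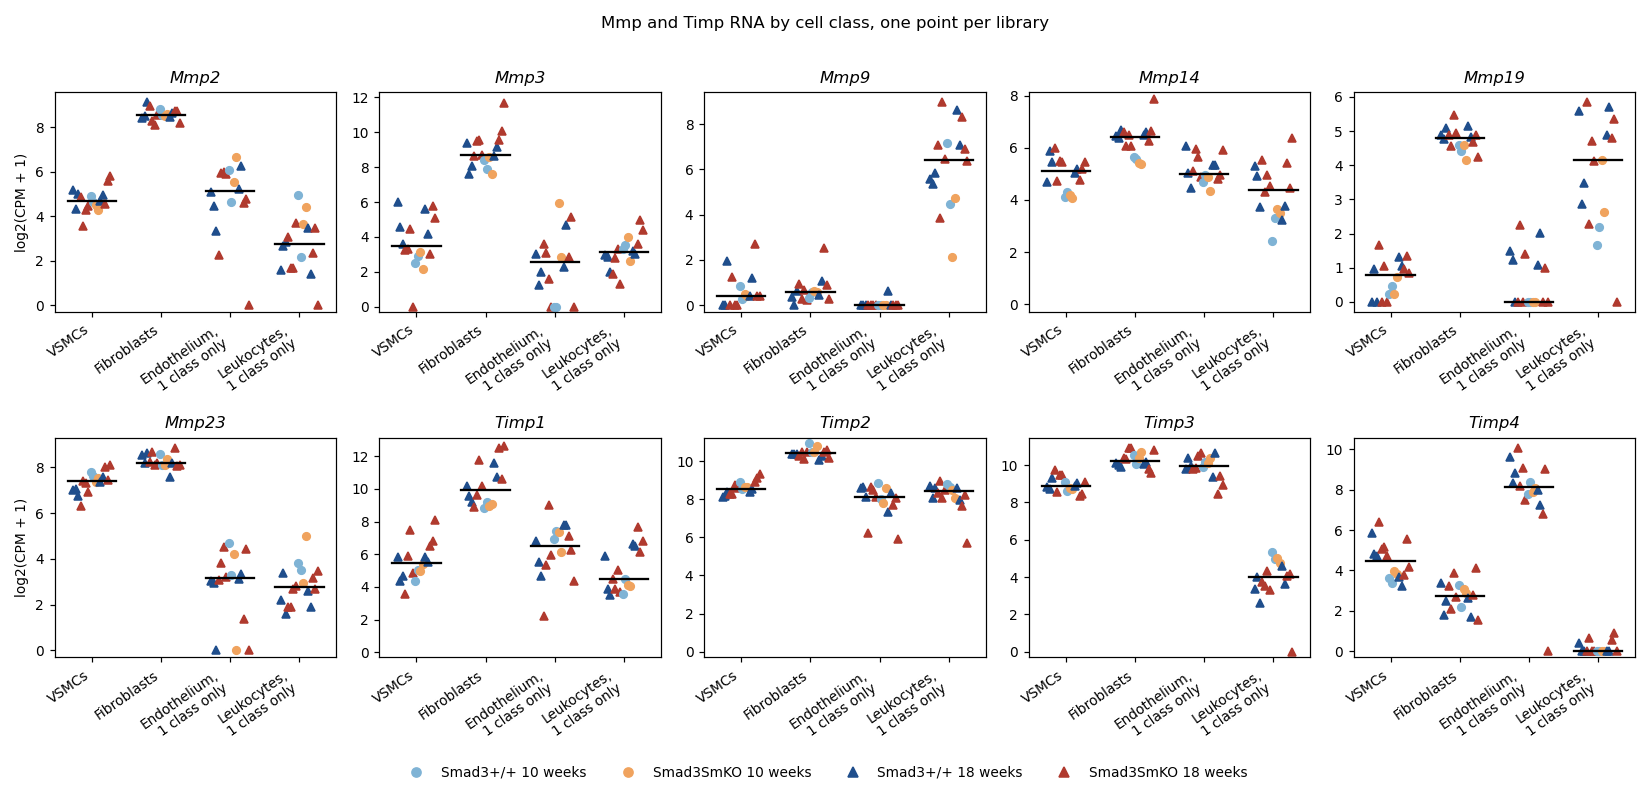
Level of each gene as log2(CPM + 1) on the y axis in 4 cell classes on the x axis, with 1 point per library, coloured by genotype label and time, and a bar at the median of the 16 libraries. Endothelium and leukocytes are the cells that met exactly 1 class rule. Mmp2, Mmp3, Mmp23, Timp1 and Timp2 are highest in fibroblasts, Mmp9 in leukocytes and Timp4 in endothelium.

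Mmp2, the gelatinase that cuts denatured collagen and basement membrane collagen, ranged from 272 to 555 CPM in fibroblasts (median 380) and from 10.8 to 55.2 CPM in VSMCs (median 24.6), with no overlap. The log2 difference was -3.80 (SE 0.19). Mmp3, stromelysin, which cuts proteoglycans and activates other proenzymes, ranged from 197 to 3317 CPM in fibroblasts (median 408) and from 0 to 62.2 CPM in VSMCs (median 10.2), a log2 difference of -5.01 (SE 0.37). Mmp19 was low throughout, at 16.6 to 43.4 CPM in fibroblasts and no more than 2.16 CPM in VSMCs (log2 difference -5.06, SE 0.27). Both Mmp3 and Mmp19 were thus rare in VSMCs, where Mmp19 rested on 62 UMIs in 8950 cells.

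The membrane-bound proteases were shared more evenly. Mmp14 ranged from 40.6 to 230.9 CPM in fibroblasts (median 84.0) and from 16.1 to 62.8 CPM in VSMCs (median 33.5), a log2 difference of -1.33 (SE 0.13). Mmp23, a protease anchored in the membrane until it is cut, ranged from 192 to 466.1 CPM in fibroblasts (median 295) and from 77.9 to 278 CPM in VSMCs (median 167), a log2 difference of -0.87 (SE 0.16). The ranges of both genes overlapped between the classes.

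Among the inhibitors, Timp1, a soluble inhibitor of most secreted Mmps, differed most, with 463 to 6290 CPM in fibroblasts (median 972) against 10.8 to 273 CPM in VSMCs (median 43.5) and a log2 difference of -4.57 (SE 0.27). Timp2 stood at 1060 to 2036 CPM (median 1377) against 279 to 648 CPM (median 380), a log2 difference of -1.77 (SE 0.11). Timp3, which binds to the matrix and also blocks Adam proteases, stood at 757 to 1951 CPM (median 1213) against 329 to 837 CPM (median 461), a log2 difference of -1.31 (SE 0.22). Timp4 had the opposite order, 1.89 to 16.2 CPM in fibroblasts (median 5.59) and 8.39 to 82.2 CPM in VSMCs (median 21.1), a log2 difference of 1.92 (SE 0.23).

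The share of the fibroblast level that VSMCs of the same library carried was set beside 7 fibroblast markers that the class rules did not use. Lum, Pdgfra, Dpt and Pi16 stood in VSMCs at median shares of 2.47%, 2.11%, 1.15% and 1.32% of their fibroblast level. Mmp3 (2.43%), Mmp19 (3.01%) and Timp1 (4.30%) lay close to these, and Mmp2 (6.21%) somewhat above. Timp2 (26.4%), Timp3 (37.0%), Mmp14 (38.9%) and Mmp23 (57.0%) lay in the range of the collagen genes Col1a1 (20.3%), Col1a2 (27.6%) and Col14a1 (35.8%) or above it. Timp4 stood at 325%. Whether the low shares reflect transcripts of fibroblasts carried over into VSMC droplets was not tested.

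**Figure D2:**
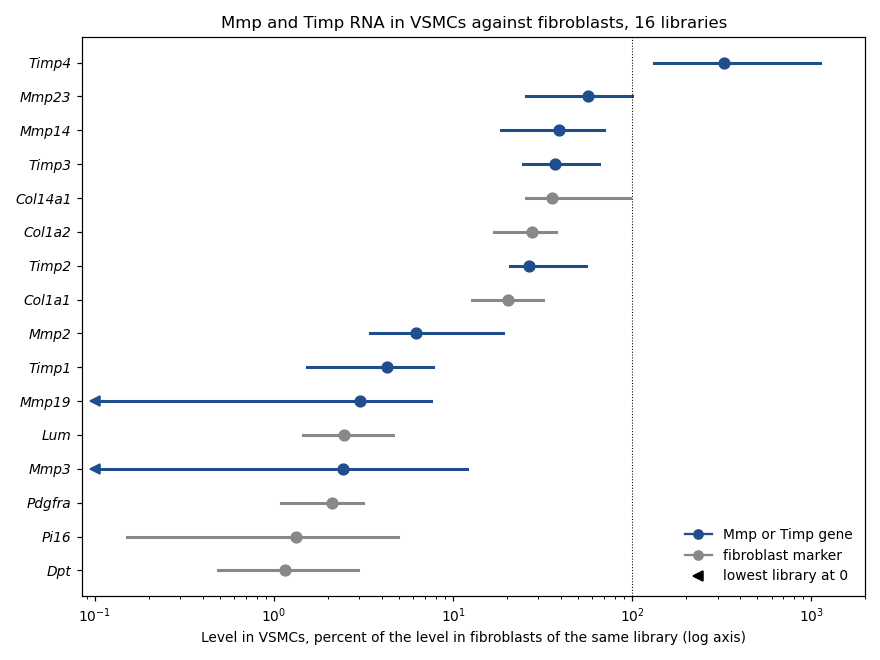
Level in VSMCs as a percentage of the level in fibroblasts of the same library (log axis) for 9 Mmp and Timp genes (blue) and 7 fibroblast markers (grey), with the median as a point and the range over 16 libraries as a line. Mmp9 is left out because it is near 0 in both classes. Mmp3, Mmp19 and Timp1 sit beside Lum and Pdgfra at a few percent, while Timp4 sits above the dotted line at 100%.

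Endothelium was set apart by Timp4. In cells that met exactly 1 class rule, Timp4 had a median of 283 CPM and reached 1083 CPM, with 0 UMIs in the library that held 3 such cells, Smad3SmKO replicate 7 of 18 weeks. The log2 difference from fibroblasts was 5.79 (SE 0.21), and 3.92 (SE 0.23) by the rule. Against endothelium VSMCs were lower in Timp4 by both counts, with log2 differences of -2.003 (SE 0.23) by the rule and -3.74 (SE 0.21) for single-class cells. Timp3 was high in these endothelial cells as well, with a median of 977 CPM and a range of 355 to 1581 CPM, and its log2 difference from fibroblasts was 0.01 (SE 0.21) by the rule and -0.47 (SE 0.15) for single-class cells.

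The other endothelial values depended on which cells were counted. Mmp23 had a median of 175 CPM in endothelium by the rule but 8.01 CPM in single-class cells, with 87 UMIs in 1226 cells. Mmp3 had 99.2 and 5.07 CPM and Mmp2 301 and 34.9 CPM in the same order. Timp1 had 524 and 93.0 CPM and Timp2 924 and 277 CPM. Mmp14 changed least, from 54.7 to 31.1 CPM. By the rule 8 of 10 genes were lower in VSMCs than in endothelium, against 63.6% of all genes called. In single-class cells only Timp1, Timp3 and Timp4 of these 8 stayed called lower in VSMCs. Mmp2 (log2 difference -0.54, SE 0.25, adjusted p 0.0609), Mmp19 (-0.33, SE 0.78, adjusted p 0.737) and Mmp14 (0.0041, SE 0.19, adjusted p 0.993) were no longer called. Timp2 was then higher in VSMCs by 0.71 on the log2 scale (SE 0.16, adjusted p 0.00015) and Mmp3 by 1.01 (SE 0.45, adjusted p 0.0462). Mmp23 was called there too, higher in VSMCs by 4.21 (SE 0.22), and by the rule its log2 difference was 0.12 (SE 0.16).

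Mmp9, the gelatinase stored in neutrophil granules, was found in leukocytes and nearly nowhere else. It ranged from 9.41 to 432 CPM in leukocytes (median 69.7), and its median stood at 0.33 CPM in VSMCs, 0.51 CPM in fibroblasts and 0 in endothelium. The log2 difference between leukocytes and fibroblasts was 7.63 (SE 0.30). In single-class cells Mmp9 ranged from 3.35 to 496 CPM in leukocytes (median 84.0), a log2 difference of 9.86 (SE 0.30). Within leukocytes, 3218 of its 3486 UMIs (92.3%) lay in the 876 cells with at least 10 UMIs of S100a8 and S100a9, genes abundant in neutrophils, at 879 CPM. The 1909 other leukocytes with at least 2 UMIs of the macrophage genes C1qa and C1qb held Mmp9 at 5.46 CPM and Timp2 at 462 CPM. Timp2 in single-class leukocytes had a median of 343 CPM and a range of 50.7 to 502 CPM. Mmp19 in leukocytes stood at a median of 62.0% of the fibroblast level of the same library, with a range of 22.9% to 185%, and the fitted log2 difference was -0.02 (SE 0.19, adjusted p 0.934).

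Of 17 other Mmps, 9 passed the filter on low counts in the class fit. Against fibroblasts, 2 of the 9 were higher and 3 lower in VSMCs, 2 higher and 4 lower in endothelium, and 4 higher and 3 lower in leukocytes. Mmp17, a membrane-type Mmp, was higher in VSMCs than in fibroblasts by 3.81 on the log2 scale (SE 0.18), and Mmp15, another membrane type, was higher in endothelium by 3.03 (SE 0.20). In leukocytes Mmp8, the neutrophil collagenase, was higher by 7.88 (SE 0.35) and Mmp12, the macrophage elastase, by 8.33 (SE 0.32). Of 14 tested genes that activate or restrain Mmps, 10 were lower in VSMCs than in fibroblasts and 4 higher, and of 10 other matrix proteases 7 were lower and 1 higher, with median log2 differences of -0.96 and -0.70 against -0.09 over all genes, of which 68.9% were called in this fit.

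The genes whose pattern was most like each member, by Pearson's r of log2(CPM + 1) over the 64 library-by-class sums among 8439 genes with a mean of at least 10 CPM, followed the same classes. These sums share libraries, so r is a description. Mmp2 was most like Fbln1 (r = 0.95), and Timp2 most like Mmp2 (0.91). Mmp3 was most like Oaf (0.88) and Serpina3n (0.88), and Timp1 most like Serpina3n (0.89), with Lbp among the nearest 3 genes of both. Mmp9 was most like Mcemp1 (0.98), followed by Il1f9 (0.98) and Trem1 (0.98), a receptor of neutrophils and monocytes. Timp4 was most like Esam (0.89), an adhesion molecule of endothelial junctions. Mmp14 was most like Sar1a (0.87), Mmp19 like Irak3 (0.88), Mmp23 like Gpx8 (0.96) and Timp3 like Ltbp4 (0.93).

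Mmp3 was patchy among fibroblasts. After each cell was thinned to 2000 UMIs, between 11.3% and 33.9% of the fibroblasts of a library (median 18.0%) held an Mmp3 UMI, against 79.5% to 93.3% for Timp2 and 41.5% to 87.7% for Timp1. Detection depends on the UMI count as well. Mmp2, with a fibroblast median of 380 CPM against 408 CPM for Mmp3, was held by 35.7% to 57.3% (median 48.3%). In VSMCs, a class with few Mmp3 UMIs, the median share was 1.30%. Fibroblasts with a thinned Mmp3 UMI also held more Mmp23 and Timp2 than the other fibroblasts of the same library, in 16 of 16 libraries each, with median ratios of 1.38 (1.17 to 1.72) and 1.27 (1.07 to 1.71). Mmp19 was higher in 15 of 16 (1.26), Mmp2 (1.08) and Timp1 (1.26) in 14, Timp3 (1.08) in 13, Timp4 (1.10) in 10 and Mmp14 (0.988) in 7. The cells with Mmp3 were also deeper in 13 of 16 libraries, with a median ratio of their median UMIs of 1.07. The share of all genes that were higher in these cells was not counted, so the ratios cannot be read as particular to the family.

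In fibroblasts, variation between libraries was large for Timp1 and Mmp3 and small for Timp2. The highest library stood 13.6-fold above the lowest for Timp1, 16.8-fold for Mmp3 and 1.92-fold for Timp2, and for the other genes detected in every library between 2.04-fold (Mmp2) and 8.54-fold (Timp4). Timp1 in the 4 fibroblast libraries of 10 weeks stood at 463, 595, 499 and 529 CPM. At 18 weeks the 7 libraries digested for 30 min ranged from 478 to 3530 CPM (median 793), and the 5 digested for 60 min stood at 3016, 1711, 5894, 1526 and 6290 CPM. The 60-min libraries of 10 weeks lay below those of 18 weeks. Of the latter, 2 of 5 lay above every 30-min library, and the 30-min and 60-min ranges overlapped. Mmp3 showed 197 to 379 CPM at 10 weeks, 197 to 758 CPM (median 412) at 18 weeks with 30 min, and 398, 579, 748, 1058 and 3317 CPM with 60 min. The highest value came from Smad3SmKO replicate 7, which held 196 fibroblasts. Mmp14 stood at 40.6 to 49.0 CPM in the 4 libraries of 10 weeks and at 66.0 to 230.9 CPM in the 12 of 18 weeks. The share of all genes that separate these libraries in the same way was not counted, and time goes with batch here. Depth goes with time as well. Kept cells had library medians of 4528 to 6034 UMIs at 10 weeks and of 6420 to 21884 UMIs at 18 weeks.

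The length of digestion was compared within 18 weeks, 5 libraries against 7, with the genotype label as a covariate. Digestion is nested in batch and goes with the tracer label, so these cannot be told apart. The number of VSMCs differed too, at 22 to 259 per library after 30 min and 319 to 1381 after 60 min. Whether the same kinds of VSMCs were released was not tested. In VSMCs 2 of 8 tested genes rose with 60 min, where 3.19% of all genes were called. Mmp23 stood at 77.9 to 167 CPM (median 130) after 30 min and at 166, 189, 263, 173 and 278 CPM after 60 min. Of the 5, 4 lay above every 30-min library. The log2 difference was 0.81 (SE 0.19, adjusted p 0.0222). Timp2 stood at 279 to 426 CPM (median 307) after 30 min and at 338, 368, 484, 567 and 648 CPM after 60 min, a log2 difference of 0.62 (SE 0.15, adjusted p 0.0299), with overlap. Timp4 went the other way, at 24.9 to 82.2 CPM (median 32.8) after 30 min and 11.9, 8.39, 12.5, 46.0 and 17.3 CPM after 60 min, and did not pass (log2 difference -1.10, SE 0.45, adjusted p 0.228).

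**Figure D3:**
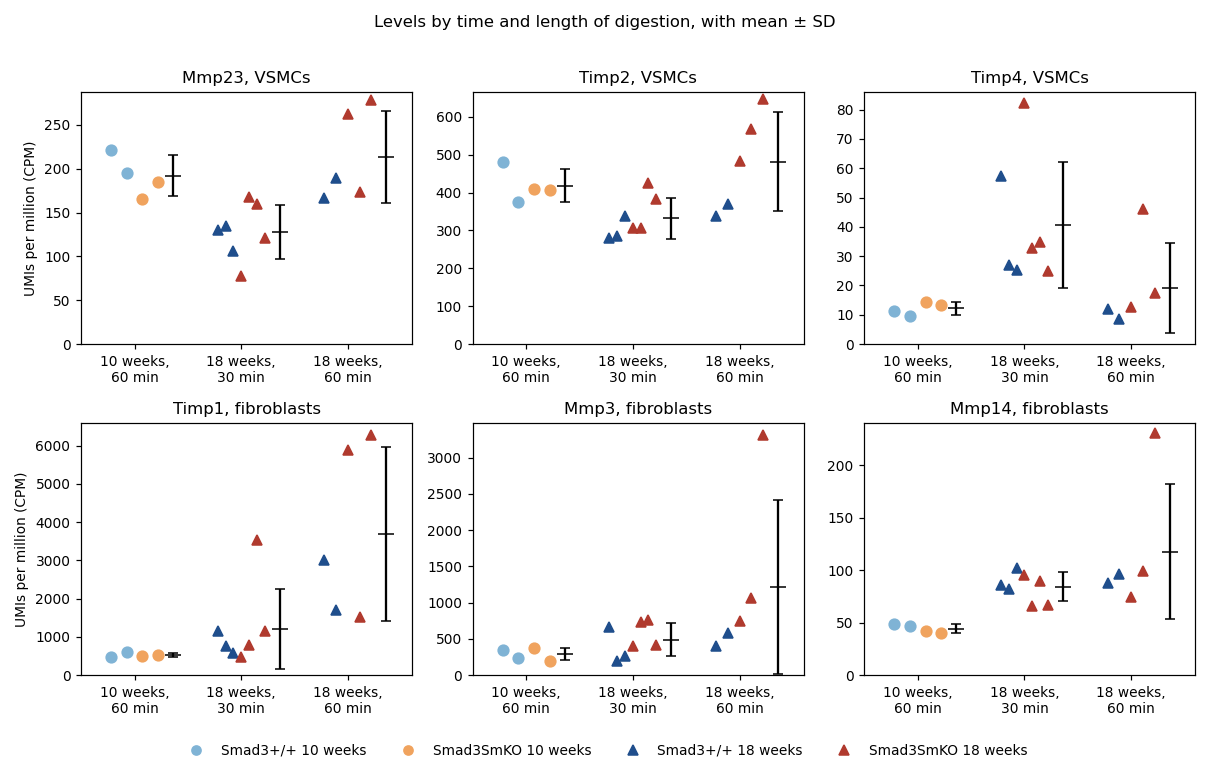
Level in CPM (y axis, from 0) of Mmp23, Timp2 and Timp4 in VSMCs and of Timp1, Mmp3 and Mmp14 in fibroblasts, by weeks after deletion and minutes of digestion (x axis), with 1 point per library coloured by genotype label and the mean ± SD beside. The VSMC values of Mmp23 average 128.02 CPM after 30 min and 214 CPM after 60 min at 18 weeks, and Mmp14 in fibroblasts is lowest in the 4 libraries of 10 weeks.

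The sizes were stable and the calls were not. Over 21 alternatives the log2 difference ranged from 0.69 to 0.96 for Mmp23, called in 16, and from 0.55 to 0.83 for Timp2, called in 11. Digestion varied only between batches, 3 against 2, and libraries of a batch are not independent. With counts summed per batch neither gene was called (Mmp23 0.92, SE 0.26, adjusted p 0.117, and Timp2 0.71, SE 0.20, adjusted p 0.108), whereas Timp4 was (-1.13, SE 0.23, adjusted p 0.0297). Without Smad3+/+ replicates 4 and 5, whose GFP UMIs and tracer label disagree, the log2 differences were 0.96 for Mmp23 (adjusted p 0.112) and 0.83 for Timp2 (adjusted p 0.0794). Without Smad3+/+ replicate 5 or Smad3SmKO replicate 5 alone neither gene was called, and without Smad3+/+ replicate 2 or Smad3SmKO replicate 2, 4 or 7 only Mmp23 was. Without Smad3SmKO replicate 6 Mmp23 and Timp4 were called and Timp2 was not. Summed fibroblast markers in VSMCs stood at 1197 to 1625 CPM after 30 min and 1455 to 2912 CPM after 60 min, and their part in the result was not tested. In fibroblasts Mmp23 moved by 0.02 (SE 0.20), and the difference between VSMCs and fibroblasts in the response of Mmp23 was 0.88 (SE 0.20, adjusted p 0.0388), 1 of 10 genes called where 1.55% of all genes were. That difference was not called without Smad3+/+ replicates 4 and 5 (0.87, adjusted p 0.393), nor when any of 7 of the 12 libraries was left out, with adjusted p between 0.0713 and 0.104.

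In fibroblasts 0 of 10 genes were called for digestion by edgeR (1.68% of all genes), 4 had an unadjusted p under 0.05 and DESeq2 called 2, Mmp3 and Timp1. Timp1 had the log2 difference of 1.74 (SE 0.49, adjusted p 0.0889), and Mmp9 2.10 (SE 0.75), Mmp3 1.28 (SE 0.46) and Mmp14 0.67 (SE 0.25) were further from the threshold. In endothelium 0 of 9 were called by edgeR (2.56% of all genes), 0 had an unadjusted p under 0.05 and DESeq2 called 0, and single-class endothelium gave 0 as well. In leukocytes Mmp2 rose by 1.23 on the log2 scale (SE 0.27, adjusted p 0.0156), 1 of 9 genes where 6.18% of all genes were called. It stood there at 15.7 to 38.1 CPM (median 26.9) after 30 min and 25.6, 74.7, 58.3, 53.9 and 35.2 CPM after 60 min, with overlap. The 8 fibroblast markers summed to 702 to 2149 CPM in the 30-min leukocytes and to 1439 to 3333 CPM in the 60-min ones, with 0 of the 8 at 0. In single-class leukocytes Mmp2 held 120 UMIs in 2946 cells and did not pass the filter on low counts. In those cells Timp1 rose by 2.44 (SE 0.46, adjusted p 0.0146) and Mmp3 by 1.62 (SE 0.43, adjusted p 0.0483), against 2.00 (SE 0.64, adjusted p 0.0966) and 1.74 (SE 0.51, adjusted p 0.0682) by the rule. The call for Mmp2 was lost without Smad3+/+ replicate 5 (1.02, adjusted p 0.0948) and without Smad3SmKO replicate 5 (1.16, adjusted p 0.0539).

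Genes known to respond to dissociation, such as Fos, Atf3 and Ier3, were set beside these values. All 20 of them were above 0 on the log2 scale for 60 against 30 min in fibroblasts, with 2 called (Atf3 1.42, Ier3 1.41) and a median of 0.57 against 0.00 over all genes. In VSMCs 2 of 20 were above 0, with 1 called (Btg2, lower by -1.06 on the log2 scale) and a median of -0.40. The shares of all genes called, 3.19% in VSMCs and 1.68% in fibroblasts, apply to the lists too. Among 11 tested genes that activate or restrain Mmps, Lrp1, which takes up Mmp and Timp complexes from outside the cell, rose in VSMCs by 0.64 (SE 0.15, adjusted p 0.0224). Of 9 other matrix proteases, 4 rose in VSMCs, namely Htra3 (1.38), Ctsb (0.72), Htra1 (0.70) and Ctsl (0.65), and of the 3 other Mmps tested Mmp17 rose (0.61). In fibroblasts 2 of 14 tested genes that activate or restrain Mmps rose. Furin, the convertase that activates membrane-type Mmps, rose by 0.79 (SE 0.15, adjusted p 0.0241) and Serpine2 by 1.13 (SE 0.22, adjusted p 0.0262).

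The comparison of genotype labels asked whether the family responds to loss of Smad3 in smooth muscle. None of the genes tested was called in any class at either time. Batch was a term in these fits, and batch 5 (Smad3SmKO replicates 5 and 7 of 18 weeks) held no control. Its values thus did not enter the log2 differences between labels within a class, whereas the CPM ranges and medians below include them. In VSMCs 0 of 9 were called by edgeR at 10 weeks (0% of all genes, 0 members at an unadjusted p under 0.05, 0 by DESeq2) and 0 of 9 at 18 weeks (0.0337% of all genes, 1 member at an unadjusted p under 0.05, 0 by DESeq2). In fibroblasts and in endothelium 0 of 10 were called at either time (0% of all genes in each), with 0 members at an unadjusted p under 0.05 and 0 by DESeq2. In leukocytes 0 of 10 were called at either time (0% of all genes), with 1 member at an unadjusted p under 0.05 at 18 weeks, 0 at 10 weeks and 0 by DESeq2. In single-class cells 0 members were called in endothelium or leukocytes at either time. The change of the genotype difference from 10 to 18 weeks in VSMCs gave 0 of 9 (0.00844% of all genes, 0 unadjusted, 0 by DESeq2).

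**Figure D4:**
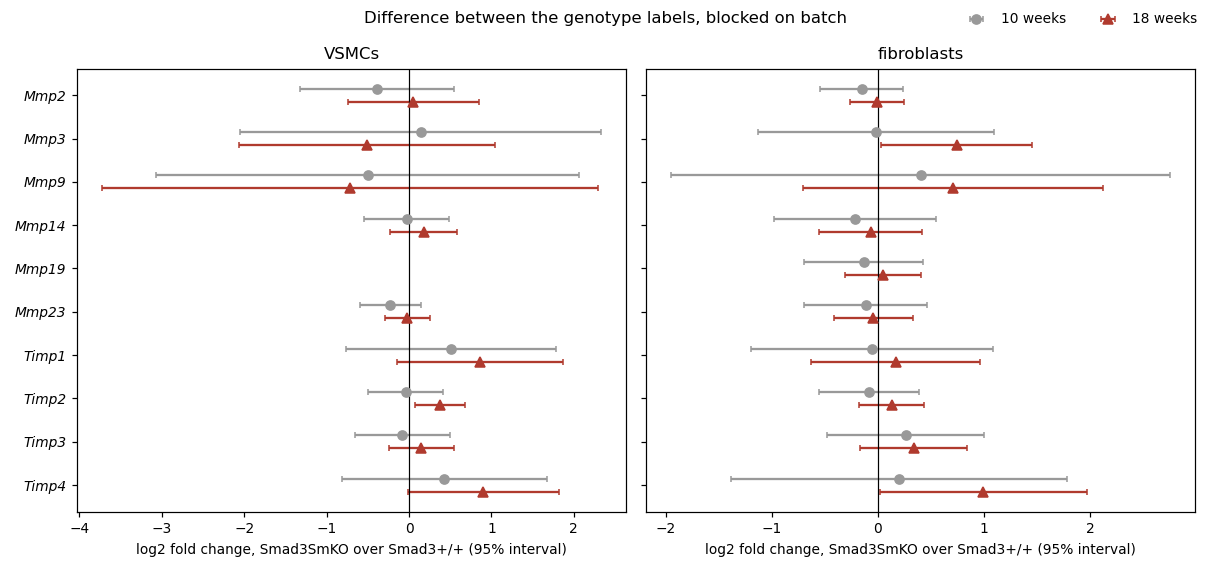
Log2 fold change of libraries labelled Smad3SmKO over Smad3+/+ (x axis) for the 10 genes (y axis) in VSMCs and fibroblasts, with 95% intervals, at 10 weeks (grey circles) and 18 weeks (red triangles). Mmp19 was not tested in VSMCs. At 18 weeks the interval of Mmp23 in VSMCs runs from -0.29 to 0.25, and that of Timp2 from 0.07 to 0.68.

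How small a difference these libraries could show varied between genes. In VSMCs at 18 weeks the 95% interval was narrowest for Mmp23 (-0.29 to 0.25 on the log2 scale) and ran from -0.23 to 0.59 for Mmp14, from -0.25 to 0.55 for Timp3 and from -0.15 to 1.87 for Timp1. Timp2 came nearest to the threshold, with 279, 286, 338, 338 and 368 CPM in Smad3+/+ and 307 to 648 CPM (median 426) in the libraries labelled Smad3SmKO. The log2 difference was 0.38 (SE 0.16, unadjusted p 0.0274, adjusted p 1) and 3 of the 4 batches with both labels showed its direction. It was 0.17 (adjusted p 0.951) without the libraries whose tracer label and GFP disagree. At 10 weeks Timp2 stood at 481 and 376 CPM in Smad3+/+ and at 409 and 408 CPM in Smad3SmKO.

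Timp1 in VSMCs at 18 weeks stood at 56.6, 19.2, 24.0, 56.0 and 46.0 CPM in Smad3+/+ and at 10.8 to 273 CPM (median 89.9) in Smad3SmKO, a log2 difference of 0.86 (SE 0.52, adjusted p 1), higher in 3 of 4 batches. Timp4 stood at 57.5, 27.01, 25.4, 11.9 and 8.39 CPM against 12.5 to 82.2 CPM (median 32.8), a log2 difference of 0.90 (SE 0.47, adjusted p 1), higher in 2 of 4 batches. The groups overlapped for both. At 18 weeks 0 of the 10 genes separated the groups in any class, where 0.142% of all detected genes did in VSMCs, 0.128% in fibroblasts, 0.124% in endothelium and 0.0692% in leukocytes. At 10 weeks, with 2 libraries against 2, Mmp2, Mmp23 and Timp4 did not overlap in VSMCs, 3 genes where 26.0% of all detected genes did not. In fibroblasts 2 genes (Mmp9 and Mmp14, against 22.04% of all genes) and in endothelium 1 gene (Mmp14, against 24.5%) did not overlap. In leukocytes 7 genes did not overlap, against 28.4% of all genes, with Mmp2, Mmp9 and Timp2 lower and Mmp14, Timp1, Timp3 and Timp4 higher under the Smad3SmKO label, none of them called by edgeR. Timp2 stood there at 576 and 494 CPM in Smad3+/+ and at 396 and 397 CPM in Smad3SmKO, whereas Timp4 rested on 5 UMIs in all. Cells with at least 10 UMIs of S100a8 and S100a9 made up 23.0% and 7.86% of leukocytes in Smad3+/+, and held 65 and 16 Mmp9 UMIs. Under the Smad3SmKO label such cells made up 2.82% and 9.68% and held 5 and 7 Mmp9 UMIs. The part of this share in the Mmp9 values was not tested. The 8 VSMC markers summed to 1656 and 2697 CPM in the Smad3+/+ leukocytes and to 3694 and 4494 CPM in the others, and their part in the result was not tested.

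In fibroblasts at 18 weeks Mmp3 stood at 670, 197, 265, 398 and 579 CPM in Smad3+/+ and at 404 to 3317 CPM (median 748) in the libraries labelled Smad3SmKO. The log2 difference was 0.74 (SE 0.36, unadjusted p 0.0652, adjusted p 1.00), and Mmp3 was higher under the Smad3SmKO label in 4 of 4 batches, by 0.15 to 1.11 on the log2 scale. In VSMCs the same comparison gave -0.51 (SE 0.79). The difference between the classes was estimated in a separate fit, over the 12 libraries of 18 weeks with library as a block, and is not the difference of those 2 values. It was -2.13 (SE 0.60, unadjusted p 0.00566, adjusted p 0.600), and 0 of 10 genes were called (0.0141% of all genes, 1 member at an unadjusted p under 0.05, 0 by DESeq2). In leukocytes Mmp3 stood at 24.6, 5.58, 2.78, 22.9 and 78.4 CPM against 21.1 to 113 CPM (median 31.0), a log2 difference of 1.40 (SE 0.55, unadjusted p 0.0294, adjusted p 1), higher in 4 of 4 batches, and 0.74 (SE 0.45) in single-class leukocytes. At 10 weeks Mmp3 in fibroblasts stood at 345 and 241 CPM against 379 and 197 CPM, with overlap.

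Of the other genes in fibroblasts at 18 weeks, Timp4 had the log2 difference of 0.99 (SE 0.50, unadjusted p 0.0709) and Mmp9 that of 0.71 (SE 0.72). Mmp2 had a log2 difference of -0.01 (95% interval -0.26 to 0.24), Timp2 of 0.13 (-0.17 to 0.43), Mmp23 of -0.05 (-0.42 to 0.33) and Mmp14 of -0.07 (-0.55 to 0.42). Timp3 was at 957 to 1158 CPM in Smad3+/+ and at 757 to 1951 CPM (median 1341) under the Smad3SmKO label, a log2 difference of 0.34 (SE 0.26, adjusted p 1.00). Of the 4 other gene lists (other Mmps, genes that activate or restrain them, other matrix proteases and dissociation genes), 0 genes were called by edgeR for genotype in VSMCs or fibroblasts at either time, and no list held more than 2 genes with an unadjusted p under 0.05.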

How the data were processed

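The authors deposited UMI counts per gene and cell barcode (raw, not normalized) from 10x Genomics 3′ libraries aligned to mm10. The submitters' processing notes name Cell Ranger 6 and Seurat 4, and the file headers cellranger 4.0.0. The 66349 barcodes held 508775009 UMIs, 12539539 to 52843031 per library, and at least 500 each. Cells with over 600 and under 6000 genes, over 2000 and under 50000 UMIs and under 25% mitochondrial UMIs were kept (50858). No doublet caller was run. Counts were summed per library and class (at least 10 cells) and tested with edgeR 4.0.16 in R 4.3.3 (TMM, filterByExpr, robust quasi-likelihood, Benjamini-Hochberg over all genes, threshold 0.05). Genotype fits used all libraries with batch as a term, digestion fits the genotype label, and class fits the library. Differences between classes in an effect came from a separate fit over VSMC and fibroblast sums of 18 weeks with library as a block. Sums, levels and figures were made with Python 3.11.15. The fits of genotype in VSMCs and fibroblasts and of digestion in fibroblasts, all at 18 weeks, were tested on simulated data. The other fits and the Python code were not. CPM is UMIs scaled to a class total of 1000000, and log2(CPM + 1) adds a pseudocount of 1. Counts come from the 3′ end, without length scaling, so levels were not compared between genes. UMI counts of Mmp2 and Mmp3 were set side by side only to read their detection in fibroblasts. Within-batch genotype differences are log2 ratios of group means. Intervals are at the 95% level from the normal distribution, so they are narrower than the quasi-likelihood test and can leave out 0 where its p is above 0.05. The members and gene lists were chosen with earlier results of these data known. Named genes are the 10 members, the called genes of the lists and the 3 nearest genes by r. Alternatives are DESeq2 1.42.0, other normalization, filters, class rules, cell limits and each library left out. Protein sequences were not used here.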

Additional observations from a re-analysis of the deposited data

Results flagged for a closer look

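In 12 of 80 groups of 5 or 7 libraries, 1 library stood apart in CPM by Dixon's criterion at 95%. Chance meets it in about 1 in 20 independent groups of normally distributed values. The groups here share libraries across genes and classes and mix digestion times, so 12 of 80 cannot be set against that rate. In fibroblasts of 18 weeks, Smad3SmKO replicate 7 was highest in Mmp3 (3317 CPM, next 1058) and Mmp14 (230.9 CPM, next 98.8) and held 196 fibroblasts. Smad3+/+ replicate 3 was highest in fibroblast Mmp2 (555 CPM, next 396), and Smad3+/+ replicate 4 lowest in fibroblast Timp2 (1060 CPM, next 1263).

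Mmp9 outside leukocytes stood apart in Smad3SmKO replicate 5 of 18 weeks, at 5.50 CPM in VSMCs (next 1.35), 4.73 CPM in fibroblasts (next 0.933) and 13.6 CPM in endothelium (next 1.17). That library held 948 leukocytes, the highest number, and in single-class cells Mmp9 there stood at 1.43, 0.83 and 0 CPM.

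In leukocytes of 18 weeks, Smad3+/+ replicate 5 was highest in Mmp3 (78.4 CPM, next 24.6) and Mmp23 (51.6 CPM, next 20.5). Smad3SmKO replicate 5 was highest in Mmp23 (79.7 CPM, next 31.9) and Smad3+/+ replicate 4 in Mmp9 (334 CPM, next 113). Timp4 in Smad3SmKO replicate 3 stood at 25.3 CPM (next 7.03) and rested on 27 UMIs.

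The response of Mmp23 to digestion differed between VSMCs and fibroblasts by 0.88 on the log2 scale, tested as the interaction of class and digestion. The 2 Smad3SmKO libraries of 10 weeks, labelled as lacking the tracer, held 411 GFP UMIs.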

How the results depend on the processing

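No paired analysis was possible because the replicate numbers follow accession order and carry no pairing between genotypes. The numbers of members called for digestion in VSMCs (2) became 6 with no filter on low counts, 1 with sums per batch, 0 with at least 50 cells and 0 without the libraries whose tracer label and GFP disagree, and ranged from 0 to 2 with single libraries left out. In leukocytes (1) they became 5 with DESeq2, 3 with the stricter class rule and 2 each with single-class cells, at least 50 cells and sums per batch (left out: 0 to 4). In fibroblasts (0) DESeq2 gave 2 (left out: 0 to 1). For VSMCs minus fibroblasts (1) they became 0 with at least 50 cells and 0 without the mismatched libraries (left out: 0 to 3). The number called between leukocytes and fibroblasts ranged from 8 to 9. For genotype at 18 weeks (0), no filter gave 2 in VSMCs, 1 in endothelium and 1 in leukocytes, and the 60-min libraries alone gave 1 in VSMCs. At 10 weeks no filter gave 1 in leukocytes. In single-class cells the log2 difference of VSMCs from endothelium turned to 1.01 for Mmp3, 0.0041 for Mmp14 and 0.71 for Timp2. The cause of these changes was not tested. Counts over all genes ranged from 1 to 134 for genotype in VSMCs at 18 weeks (4), and for digestion from 26 to 1041 in VSMCs (332), 22 to 1176 in fibroblasts (244), 3 to 686 in endothelium (280), 214 to 961 in leukocytes (563) and 6 to 449 for VSMCs minus fibroblasts (220). Endothelium against fibroblasts ranged from 3537 to 7668 (4861). Where no filter or DESeq2 raised a genotype count from 0, it reached at most 51 in VSMCs, 3 in fibroblasts, 120 in endothelium and 71 in leukocytes. Over 28 settings, 269 of 3069 values of members with an unadjusted p of 0.05 or more (8.77%) changed sign. Low counts limit Mmp9 and Mmp19 in VSMCs, and few cells limit single-class endothelium.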
